A study of Mus musculus with 12 samples.

Results

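The Schlafen genes are a mouse gene family whose members lie next to each other on chromosome 11, and 7 of them, Slfn1, Slfn2, Slfn3, Slfn4, Slfn5, Slfn8 and Slfn9, are described here in lungs injured by mechanical ventilation. Its members were chosen by name with results of these data known. Slfn4 and Slfn1 were known to be among the largest rises after ventilation in wild type lungs, and the wild type comparison is taken here as the one behind the choice, so its values are given as a description with no test. Whether knockout values also played a part is not known. The members were found as the 11 probe sets whose annotation names 1 of these genes alone. Of the 10996 genes tested, 5 were members (Slfn1, Slfn2, Slfn4, Slfn5 and Slfn8), because Slfn3 and Slfn9 had no probe set above the array median on at least 3 of the 12 arrays.

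The samples were lung tissue of mice aged 8 to 12 weeks, with 3 mice in each of 4 groups and 1 single-colour Affymetrix array per mouse. Knockout VILI mice (written GADD45-/- in the titles, with Gadd45a named in the series title) and wild type VILI mice had ventilator-induced lung injury, made by 4 hours on a ventilator set to 65 breaths per minute and a tidal volume of 30 ml/kg. Knockout SB mice and wild type SB mice were set against them. SB is an abbreviation that the labels do not spell out, and the design text lists these mice as the wild type control group and the group with the deletion alone. The genotype field of the knockout VILI mice reads GADD-/-, and since all 12 descriptions speak of a control animal, groups were taken from the titles. The sources used here do not give strain, sex or the way the Gadd45a allele was made. The values are log2 expression values as the authors deposited them, and medians of the arrays lay between 4.36 and 4.58.

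Gadd45a, the targeted gene, read 4.58 to 6.15 on the 6 knockout arrays and 8.62 to 10.33 on the 6 wild type arrays. Lung epithelial markers stood high on every array, and the mean of the 13 measured ones lay between 12.8 and 13.5, so the tissue label fits its markers. Pearson's r between arrays within a group was 0.963 to 0.995. Knockout SB replicate 3 and knockout VILI replicate 3 stood apart in B cell markers, with means over 8 genes of 9.54 and 10.01, against 5.77 to 7.32 on the other arrays. For VILI against SB in knockout, counts of members and listed genes that changed without both are given below.

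As background, Schlafen proteins share a conserved amino-terminal core and come in 3 sizes. Slfn1 and Slfn2 are short and hold little more than this core, Slfn3 and Slfn4 are intermediate, and Slfn5, Slfn8 and Slfn9 are long and carry a helicase-like region at their carboxy-terminal end. The family is best known from immune cells: several members are induced by type I interferon, Slfn2 keeps mouse T cells and monocytes quiescent and fit to survive, Slfn1 restrains the growth of thymocytes when forced on, and Slfn4 is expressed in mouse cells of the myeloid lineage, where its forced expression disturbs their maturation.

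The promoters are shown because runs of letters are shared between some members and not others. They come from RefSeq (build GRCm38.p6), which had a window of 300 bases, 250 before and 50 after the transcription start, for all 7 members, with a second start for Slfn8. Each is written in the direction of its own gene. The capitals in Slfn4, Slfn1 and Slfn2 mark ACTTCCTGG, the longest run of letters shared by the windows of the 4 short and intermediate members, found by comparing those windows with each other. The capitals in Slfn8 and Slfn5 mark the core of the interferon-stimulated response element (ISRE), searched on both strands as GAAA, any 2 bases and GAAA again, and the match in Slfn8 lies on the opposite strand.
Slfn4, chr11:83174936-83175235, plus strand: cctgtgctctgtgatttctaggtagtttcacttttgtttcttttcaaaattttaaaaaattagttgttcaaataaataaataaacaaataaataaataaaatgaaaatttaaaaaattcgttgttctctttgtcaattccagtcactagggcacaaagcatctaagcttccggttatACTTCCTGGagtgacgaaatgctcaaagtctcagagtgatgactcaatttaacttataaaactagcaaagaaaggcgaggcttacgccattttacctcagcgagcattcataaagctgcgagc
Slfn1, chr11:83116570-83116869, plus strand: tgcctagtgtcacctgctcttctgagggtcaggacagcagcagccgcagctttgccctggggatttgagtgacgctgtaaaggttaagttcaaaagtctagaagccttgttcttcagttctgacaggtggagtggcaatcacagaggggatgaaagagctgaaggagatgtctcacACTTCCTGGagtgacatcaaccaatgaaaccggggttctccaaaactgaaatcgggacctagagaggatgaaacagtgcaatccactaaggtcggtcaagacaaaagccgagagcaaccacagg
Slfn2, chr11:83064862-83065161, plus strand: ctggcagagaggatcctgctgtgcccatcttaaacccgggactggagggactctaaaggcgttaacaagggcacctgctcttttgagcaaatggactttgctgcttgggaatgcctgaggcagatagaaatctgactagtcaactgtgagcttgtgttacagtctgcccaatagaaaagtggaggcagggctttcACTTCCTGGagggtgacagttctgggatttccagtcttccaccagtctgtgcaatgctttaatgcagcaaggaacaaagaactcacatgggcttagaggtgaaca
Slfn8, chr11:83020761-83021060, minus strand: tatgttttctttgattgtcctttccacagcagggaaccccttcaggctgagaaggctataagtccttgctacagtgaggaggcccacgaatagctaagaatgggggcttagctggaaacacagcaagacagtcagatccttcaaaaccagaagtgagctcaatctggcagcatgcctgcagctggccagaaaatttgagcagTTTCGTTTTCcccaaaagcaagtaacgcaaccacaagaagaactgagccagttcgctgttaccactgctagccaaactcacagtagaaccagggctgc
Slfn5, chr11:82951852-82952151, plus strand: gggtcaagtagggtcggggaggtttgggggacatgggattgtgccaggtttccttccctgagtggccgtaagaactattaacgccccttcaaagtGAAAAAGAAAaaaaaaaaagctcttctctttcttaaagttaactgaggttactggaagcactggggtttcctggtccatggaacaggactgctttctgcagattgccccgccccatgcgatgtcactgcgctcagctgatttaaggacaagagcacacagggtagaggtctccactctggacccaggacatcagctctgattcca

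The shared run lay 73 to 65 bases before the start in Slfn4, 74 to 66 in Slfn1, 55 to 47 in Slfn2 and 42 to 34 in Slfn3. It was not in the windows of Slfn5, Slfn8 or Slfn9, and 0.843% of the 32851 windows of all genes hold it on either strand. In Slfn1 and Slfn4 the shared letters run on to 15 bases. The run was looked for after the sequences had been read, so its count over the members is a description.

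The ISRE core was in the windows of 3 of 7 members, all of them long: Slfn5, 155 to 146 bases before the start, Slfn8, 48 to 39 before its upstream start, and Slfn9, 45 to 36 before the start. It occurs in 3.44% of all windows. Slfn8 and Slfn9 carried the same 10 letters there, and these paralogs share runs of up to 20 bases in their windows, so their matches are not independent of each other. Of 4 other motifs searched on both strands, the gamma-activated site TTCNNNGAA was in 0 of 7 members (8.3% of all windows), the PU.1-type motif GAGGAAG in Slfn9 alone (13.6%), the C/EBP-type motif TTGCNNAA in Slfn2 and Slfn3 (10.8%) and the kB motif in Slfn1 and Slfn9 (8.46%). In Slfn9 the kB motif lay apart from the PU.1-type motif, and none of the matches in Slfn1 or Slfn2 overlapped the capitals above. A match describes letters in this window only.

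After ventilation, 3 of the 5 measured Schlafen genes were higher in knockout lungs: Slfn4 by 8.95-fold, Slfn8 by 7.03-fold and Slfn2 by 2.28-fold. Slfn1 averaged 5.43-fold higher but did not pass the test, Slfn5 was at 1.35-fold without passing, and 0 members were lower. This comparison asked whether the rise known from wild type also appears in lungs without Gadd45a. The differences come from the 6 knockout arrays, while the wild type arrays enter the fit through the shared spread, and with the knockout arrays alone 0 of the 5 passed. Calls were made with limma over all genes, at an adjusted p under 0.05 after Benjamini-Hochberg adjustment. The share of all genes called higher here was 2.76%, and 1.7% were called lower. Slfn8 passed the filter through the VILI arrays, and with no filter Slfn4 and Slfn8 were called and Slfn2 was not. In bulk lung tissue, more cells of a type and more RNA per cell cannot be told apart.

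Slfn4, the intermediate myeloid member, read 8.99, 10.01 and 9.62 in knockout VILI lungs and 7.35, 6.06 and 5.73 in knockout SB lungs. All 3 knockout VILI arrays were above all 3 knockout SB arrays, and knockout SB replicate 1 was the highest of its group. The means were 9.54 ± 0.51 in knockout VILI and 6.38 ± 0.86 in knockout SB (SD, n = 3 each), a difference of 3.16 on the log2 scale (SE 0.38, limma adjusted p = 0.00355). This call held in each of the 12 fits that left out 1 array, with differences of 2.84 to 3.65 and a highest adjusted p of 0.0183.

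In wild type, the comparison taken as behind the choice, Slfn4 read 9.48, 10.13 and 9.92 after VILI and 6.06, 5.64 and 6.05 under SB. The wild type groups did not overlap and differed by 3.92 (SE 0.38), or 15.2-fold. The means were 9.84 ± 0.33 in wild type VILI and 5.92 ± 0.24 in wild type SB (SD, n = 3 each). By group mean the order of Slfn4 was wild type VILI, knockout VILI, knockout SB and wild type SB, and the arrays of the 2 VILI groups overlapped, as did those of the 2 SB groups.

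**Figure D1:**
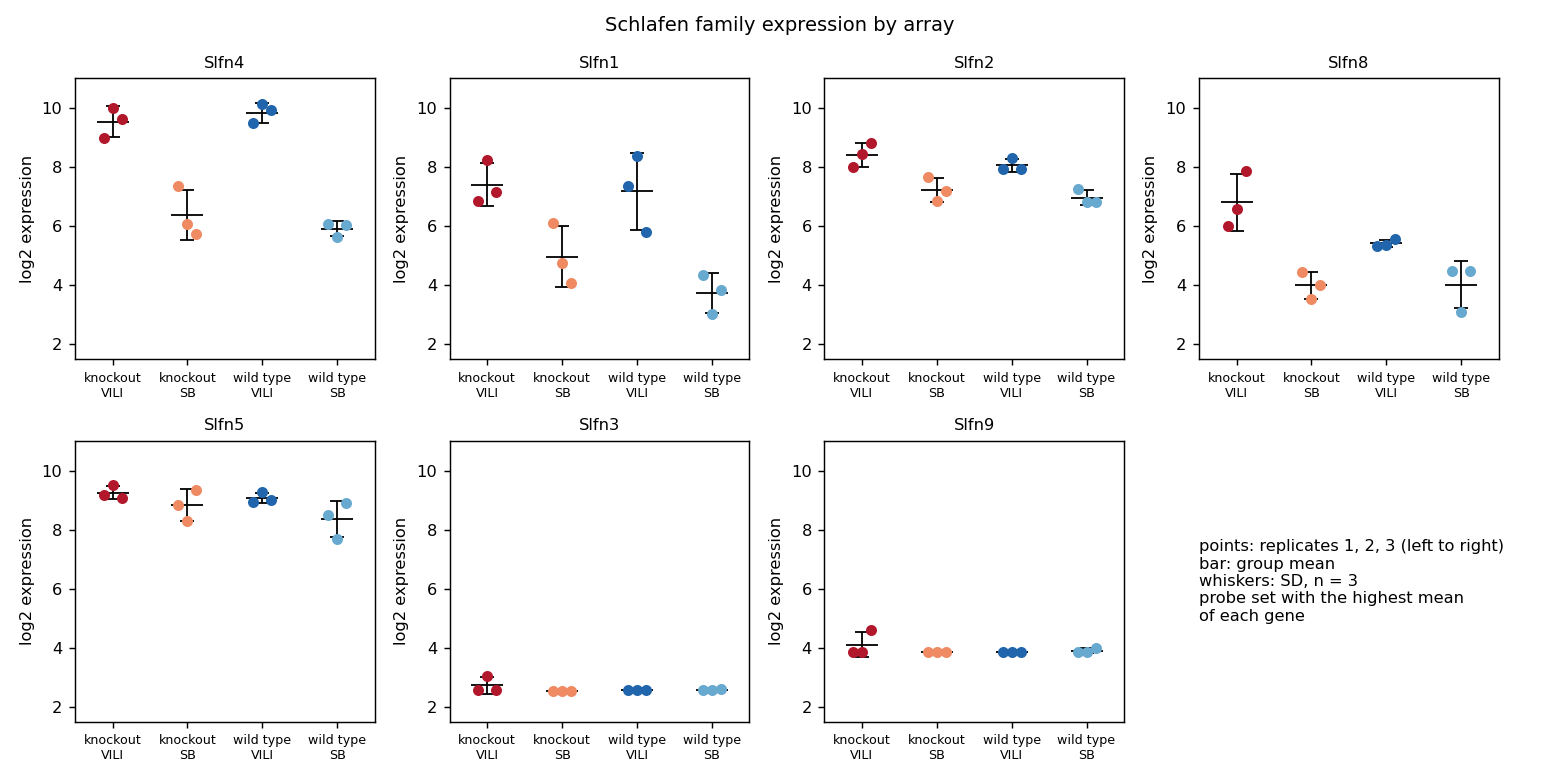
Log2 expression of the 7 Schlafen genes on each of the 12 arrays, by group on the x axis, with the group mean as a bar and the SD over 3 arrays as whiskers. Within each genotype, VILI arrays stand above SB arrays for Slfn4, Slfn1, Slfn2 and Slfn8, while Slfn3 stays between 2.54 and 3.06 and Slfn9 between 3.85 and 4.60.

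Slfn1, the short member named for its effect on thymocyte growth, read 6.85, 8.23 and 7.15 in knockout VILI lungs and 6.11, 4.74 and 4.06 in knockout SB lungs. The groups did not overlap, but knockout SB replicate 1 lay within 1 log2 unit of the lowest knockout VILI array. The means were 7.41 ± 0.73 in knockout VILI and 4.97 ± 1.05 in knockout SB (SD, n = 3 each), a difference of 2.44 (SE 0.67, limma adjusted p = 0.0652). Among the 12 fits without 1 array, the one without wild type VILI replicate 3, which enters only through the shared spread, passed at adjusted p = 0.0436.

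In wild type, Slfn1 read 7.36, 8.37 and 5.79 after VILI and 4.35, 3.03 and 3.85 under SB. The arrays did not overlap, and wild type VILI replicate 3 was low for its group. The means were 7.17 ± 1.30 in wild type VILI and 3.74 ± 0.67 in wild type SB (SD, n = 3 each), a difference of 3.43 (SE 0.67). Slfn1 exceeded the array median on 8 of the 12 arrays, among them every VILI array. Its folds are therefore approximate, and it could pass the filter through the VILI arrays. With no filter its knockout difference was again not called (limma adjusted p = 0.0858). A second Slfn1 probe set read between 1.78 and 1.81 on every array, near the bottom of the scale, and carried no difference.

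Slfn2, the short member that keeps lymphocytes and monocytes quiescent, read 8.01, 8.43 and 8.81 in knockout VILI lungs and 7.66, 6.84 and 7.20 in knockout SB lungs. The groups were separate, and all 12 arrays lay above the array median. The means were 8.42 ± 0.40 in knockout VILI and 7.23 ± 0.41 in knockout SB (SD, n = 3 each), a difference of 1.19 (SE 0.25, limma adjusted p = 0.0238). This call depended on single arrays: leaving out knockout VILI replicate 2 gave an adjusted p of 0.0922 and leaving out replicate 3 gave 0.0789, while leaving out knockout SB replicate 2 gave 0.0667 and replicate 3 gave 0.0545.

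In wild type, Slfn2 read 7.95, 8.31 and 7.92 after VILI and 7.24, 6.83 and 6.81 under SB. The groups were again separate, and the 6 arrays gave a difference close in size to that of the knockout, 1.10 (SE 0.25). The means were 8.06 ± 0.22 in wild type VILI and 6.96 ± 0.24 in wild type SB (SD, n = 3 each).

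Slfn8, a long member with the helicase-like region, read 5.99, 6.56 and 7.87 in knockout VILI lungs and 4.44, 3.52 and 4.02 in knockout SB lungs. Knockout VILI replicate 3, 1 of the arrays high in B cell markers, was the highest of all 12. The means were 6.81 ± 0.96 in knockout VILI and 4.00 ± 0.46 in knockout SB (SD, n = 3 each), a difference of 2.81 (SE 0.48, limma adjusted p = 0.0124). The call held in each of the 12 fits without 1 array, at a highest adjusted p of 0.0481. Without both arrays high in B cell markers the difference was 2.30 and the adjusted p was 0.0576.

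In wild type, Slfn8 read 5.31, 5.37 and 5.56 after VILI and 4.49, 3.09 and 4.46 under SB. The 3 wild type VILI arrays lay close together, and wild type SB replicate 2 was low for its group. The means were 5.41 ± 0.13 in wild type VILI and 4.02 ± 0.80 in wild type SB (SD, n = 3 each), a difference of 1.40 (SE 0.48). Slfn8 too exceeded the array median on 8 of 12 arrays, 6 of them VILI, so its folds are approximate and it passed the filter through the VILI arrays. With no filter it was still called in knockout (limma adjusted p = 0.0319). By group mean its order was knockout VILI, wild type VILI, wild type SB and knockout SB, and the 2 SB groups overlapped.

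Slfn5, the other long member measured, differed between its probe sets. The brightest of 3, which stands for the gene in the counts, read 9.18, 9.51 and 9.08 in knockout VILI lungs and 8.83, 8.29 and 9.36 in knockout SB lungs. These groups overlapped, and the difference of 0.43 (SE 0.31) did not pass (limma adjusted p = 0.443). In wild type the same probe set read 8.95, 9.28 and 9.0 after VILI and 8.52, 7.69 and 8.90 under SB, a difference of 0.71 (SE 0.31) with no overlap.

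A second Slfn5 probe set read 6.03, 7.14 and 5.39 in knockout VILI lungs and 4.40, 3.66 and 3.45 in knockout SB lungs. Here the groups were separate, with a difference of 2.35, given with no test because the 6 VILI arrays and 1 SB array alone exceeded the array median, so that it was kept through the group where it is high. It read 5.03, 5.37 and 6.24 in wild type VILI and 4.94, 3.8 and 4.24 in wild type SB, a difference of 1.22. The third probe set was at 0.39 in knockout (limma adjusted p = 0.638 in a fit over all 23082 kept probe sets, added after the data were seen) and at 1.21 in wild type. The part of the transcript that each probe set reads was not examined here, so no single value stands for Slfn5.

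Slfn3, the intermediate paralog of Slfn4, read between 2.54 and 3.06 on the 12 arrays with its own probe set and was below the array median on all of them. A further probe set is annotated to Slfn3 and Slfn4 together and is assigned to neither. It read 4.72, 6.65 and 5.93 in knockout VILI lungs and 3.48, 3.25 and 2.94 in knockout SB lungs, a difference of 2.54. It exceeded the array median on the 6 VILI arrays alone and was kept through them, so no test is given. In wild type it read 5.81, 6.83 and 6.25 after VILI and 2.78, 3.27 and 3.28 under SB, a difference of 3.19. Both genotypes were separated by treatment on this probe set, as on that of Slfn4 alone.

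Slfn9, the long paralog of Slfn8, was below the array median on all arrays but 1 with its brighter probe set. That probe set read 4.60 in knockout VILI replicate 3 and between 3.85 and 4.01 on the other arrays, and its second probe set stayed between 3.54 and 3.61. Whether Slfn8 and Slfn9 transcripts cross-hybridise on these probe sets was not tested.

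**Figure D2:**
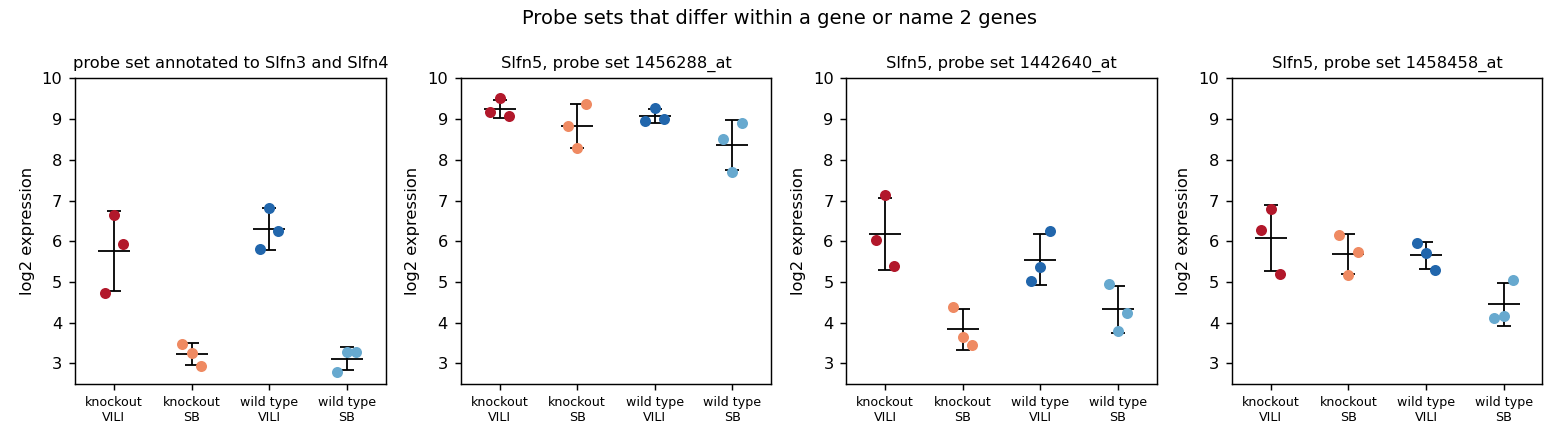
Log2 expression by array and group for the probe set annotated to Slfn3 and Slfn4 together and for the 3 kept probe sets of Slfn5, with the mean as a bar and the SD over 3 arrays as whiskers. The joint probe set and the second Slfn5 probe set separate knockout VILI from knockout SB, with differences of 2.54 and 2.35, and the brightest and the third Slfn5 probe sets overlap there.

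Counted over the 5 measured members, 4 had every knockout VILI array above every knockout SB array (12.9% of all genes tested did), and 5 had every wild type VILI array above every wild type SB array (11.6% of all genes). In wild type the count is a description, and it was 4 with quantile normalization between arrays. Of all genes, 1.36% were called higher and 1.28% lower there. The median log2 change over all genes tested was 0.0045 in knockout and -0.05 in wild type. With only the 6 knockout arrays in the fit, 0 of the 5 members passed in limma, 4 had an unadjusted p under 0.05, and the lowest adjusted p was 0.0616 (Slfn4), while 11 of all genes passed. Without knockout SB replicate 3 and knockout VILI replicate 3, Slfn4 alone passed (2.79, adjusted p = 0.0303).

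**Figure D3:**
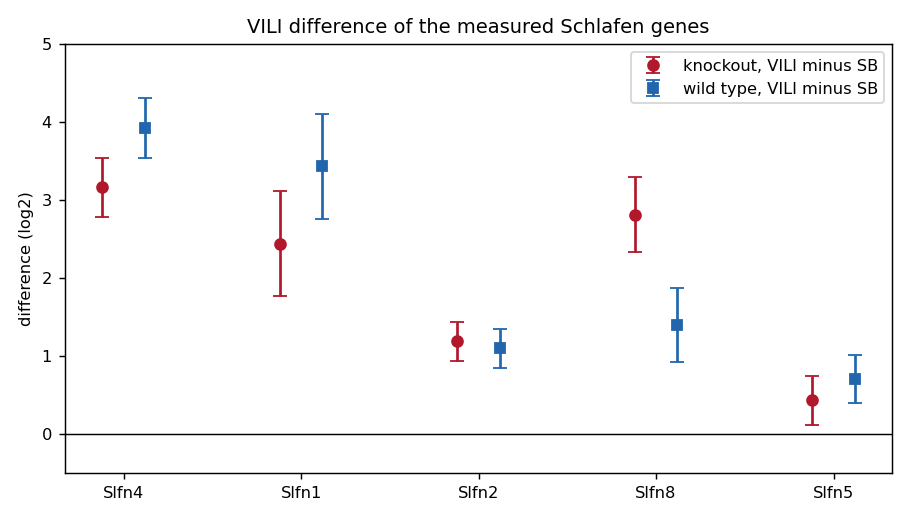
Log2 difference between VILI and SB for the 5 measured Schlafen genes, in knockout (circles) and wild type (squares), with the standard error of the limma contrast as whiskers. All differences are above 0, from 0.43 for Slfn5 to 3.16 for Slfn4 in knockout and from 0.71 to 3.92 for the same genes in wild type.

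Genotype made no difference that passed the test in any of the 5 members. The comparisons in SB and in VILI both use wild type arrays, which are also in the comparison taken as behind the choice. The sizes for Slfn4 and Slfn1 may carry that choice. In SB lungs, knockout against wild type called 0 members in limma, 0 of them at an unadjusted p under 0.05, while 0.0455% of all genes were called higher and 0.0637% lower. The differences were 1.23 for Slfn1 (95% interval -0.25 to 2.70, adjusted p = 0.561), 0.46 for Slfn4 (-0.37 to 1.30), 0.46 for Slfn5 (-0.21 to 1.14), 0.27 for Slfn2 (-0.28 to 0.81) and -0.02 for Slfn8 (-1.06 to 1.02). With the probe set that stands for each gene, the arrays of the 2 genotypes overlapped for all 5, while 3.76% of all genes had every knockout SB array higher and 11.5% every one lower. For Slfn5 the third probe set was at 1.24, with every knockout SB array above every wild type SB array (limma adjusted p = 0.363 over all kept probe sets), and the second was at -0.49. Without knockout SB replicate 1, the array with the highest Slfn4, the Slfn4 difference was -0.022.

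After ventilation, knockout against wild type again called 0 of the 5 members, and 1 had an unadjusted p under 0.05. That member was Slfn8, at 1.40 (95% interval 0.35 to 2.44, limma adjusted p = 0.568), with every knockout VILI array above every wild type VILI array, as in 6.64% of all genes, while 8.13% had every knockout VILI array lower and no member did. Without knockout VILI replicate 3 the Slfn8 difference was 0.86. The others were 0.24 for Slfn1 (-1.24 to 1.71), 0.36 for Slfn2 (-0.19 to 0.90), 0.18 for Slfn5 (-0.49 to 0.86) and -0.30 for Slfn4 (-1.14 to 0.54). Among all genes 0.0455% were called higher and 0.0546% lower.

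The test of whether the response to VILI differed between genotypes, which contains the wild type difference taken as behind the choice of the family, called 0 members and 0 of all 10996 genes in limma, with 0 members and 288 genes at an unadjusted p under 0.05. The response in knockout minus that in wild type was 1.42 for Slfn8 (95% interval -0.06 to 2.89), -0.99 for Slfn1 (-3.08 to 1.10), -0.76 for Slfn4 (-1.95 to 0.42), -0.28 for Slfn5 (-1.24 to 0.68) and 0.09 for Slfn2 (-0.68 to 0.86). These intervals leave room for differences of several fold in Slfn1 and Slfn8, so the genotypes are not shown to respond alike. In Slfn5 the sign depended on the probe set, with -0.28 for the brightest, 1.13 for the second and -0.82 for the third.

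**Figure D4:**
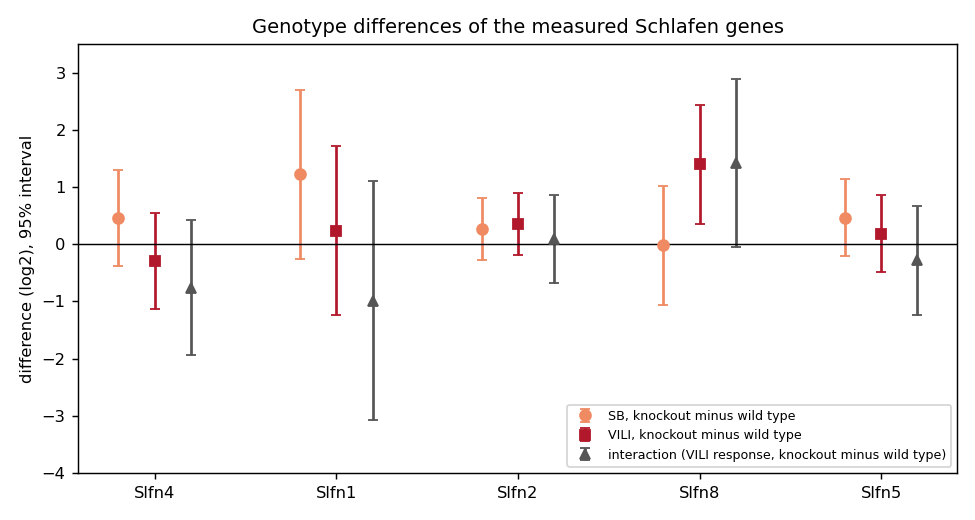
Log2 differences between knockout and wild type in SB (circles) and VILI (squares) and the interaction (triangles) for the 5 measured Schlafen genes, with 95% intervals from the limma fit. The interval of Slfn8 after VILI, 0.35 to 2.44, lies above 0, and every other interval reaches across 0.

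Most measured neutrophil markers were higher after VILI, as several Schlafen genes were. In knockout, 10 of 15 measured markers rose and 0 fell, where 2.76% of all genes were called higher and 1.7% lower. The median log2 change of the 15 was 2.53. Among those that rose were Mmp8, the neutrophil collagenase, at 4.90, and the lectin receptor gene Clec4e at 4.17. The granulocyte colony-stimulating factor receptor gene Csf3r was at 1.98, and the gelatinase gene Mmp9 at 1.33. Trem1 (1.33), Fpr2 (1.16), Ngp (0.97), Ltf (0.91) and Hp (-0.20) did not pass. Mmp8 and Clec4e averaged 4.03 and 3.34 in knockout SB, below the array medians, so their changes are approximate. Clec4e lay below the array median on every SB array and was kept through the VILI arrays. A marker low under SB could pass the filter only through VILI arrays, so the counts of markers that rose are a description. The summed signal of the 15 markers, on the log2 scale, was 15.2 to 15.8 in knockout VILI against 14.0 to 14.2 in knockout SB, and 15.2 to 15.7 in wild type VILI against 14.1 to 14.2 in wild type SB. In wild type 10 rose and 0 fell as well, with a median of 2.88, where 1.36% of all genes were called higher. Camp, Elane and Mpo, genes of neutrophil granules, stayed below the array median on all arrays and were not tested. In knockout the count of markers that rose was 5 without both replicate 3 arrays and 3 in the fit of the knockout arrays alone. Their part in the Schlafen values was not tested.

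Markers of other blood and immune cells did not pass. Of 15 macrophage and monocyte markers, 0 rose and 0 fell in knockout (median -0.01), with the monocyte receptor gene Ccr2 at 1.74 (limma adjusted p = 0.120). The summed signal of these markers was 13.4 to 14.5 in knockout VILI and 13.7 to 14.2 in knockout SB. Of 15 macrophage markers, 2 rose without knockout VILI replicate 1. T and NK cell markers (11 measured, median 0.04), B cell markers (8, median 0.29) and platelet markers (4, median -0.07) had 0 calls as well in knockout VILI against knockout SB. Of 16 endothelial markers 4 fell and 0 rose (median -0.33), where 1.7% of all genes were called lower. Sox17, a transcription factor of endothelium, fell by 1.16, and Eng, which encodes endoglin, by 0.94. The angiopoietin receptor gene Tek fell by 0.97 and Calcrl by 0.82. The endothelial count was 1 without both replicate 3 arrays and 1 with the knockout arrays alone. It was 2 without knockout SB replicate 1 or knockout VILI replicate 2. Of 13 lung epithelial markers, Cyp2f2, a club cell cytochrome P450, fell by 0.37 and 0 rose (median -0.21). That call was lost with the knockout arrays alone, without both replicate 3 arrays and in most of the fits without 1 array. It was also lost with no filter, with no variance trend and with arrays centred on their medians.

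Of 27 measured interferon-stimulated genes, the class that several Schlafen genes belong to, 3 rose and 0 fell in knockout (median 0.29), where 2.76% of all genes were called higher: the chemokine gene Cxcl10 by 3.12, the RNA-binding Ifit1 by 1.24 and the exonuclease gene Isg20 by 0.54. The count was 0 with the knockout arrays alone, 0 without knockout SB replicate 1 or knockout VILI replicate 3, 6 without knockout VILI replicate 1, and 1 without knockout SB replicate 2 or 3, wild type VILI replicate 1 or 2, knockout VILI replicate 2 or both replicate 3 arrays. In wild type 0 rose and 0 fell in limma (median 0.02). The mean of these genes was 8.36 to 8.94 in knockout VILI and 7.99 to 8.34 in knockout SB, and 8.03 to 8.48 in wild type VILI and 7.99 to 8.37 in wild type SB. Knockout VILI replicate 3 was highest in this mean and in Slfn8 alike. The same array was also highest in Slfn2 and in the means of B cell markers (10.01) and T and NK cell markers (7.88).

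Of 15 measured genes of interferon receptors and their signalling, Socs3, which inhibits cytokine receptors, rose by 2.36 in knockout and 0 fell (median 0.17). That call was lost with the knockout arrays alone and without knockout SB replicate 1 or knockout VILI replicate 2 or 3. It was also lost without both replicate 3 arrays. The receptor genes Ifnar1 and Ifnar2 were at 0.01 and -0.14 and did not pass. Of the 9 genes of T cell quiescence, a state that Slfn2 also maintains, Klf2, which keeps naive T cells resting and is also high in endothelium, fell by 1.47, and the antiproliferative gene Btg1 rose by 0.63 (median -0.0041). With the knockout arrays alone neither passed, and the Btg1 call was lost without knockout SB replicate 1 or 2, wild type VILI replicate 2 or knockout VILI replicate 2 or 3. The Btg1 call was also lost without both replicate 3 arrays, with no filter and with the mean of the kept probe sets of each gene. Of 6 measured cytokines and chemokines of the innate response, 5 rose and 0 fell in knockout (median 3.96), led by Il6 at 4.86 and the neutrophil attractant Cxcl5 at 4.55, with Cxcl1 at 3.95 and Il1b at 2.63, and 3 passed without knockout VILI replicate 2 or without both replicate 3 arrays, and 2 with the knockout arrays alone. The sizes for Il6, Cxcl5 and Cxcl1 are approximate because this list lies low on the arrays, its mean being 3.97 to 4.55 in knockout SB. Of the 16 annotated genes of the list, 8 were below the array median on all arrays, among them Ccl2, Ccl3 and Tnf, and were not tested. A gene low under SB could pass the filter only through VILI arrays, so the count of 5 of 6 is a description. Among all genes 2.76% were called higher.

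**Figure D5:**
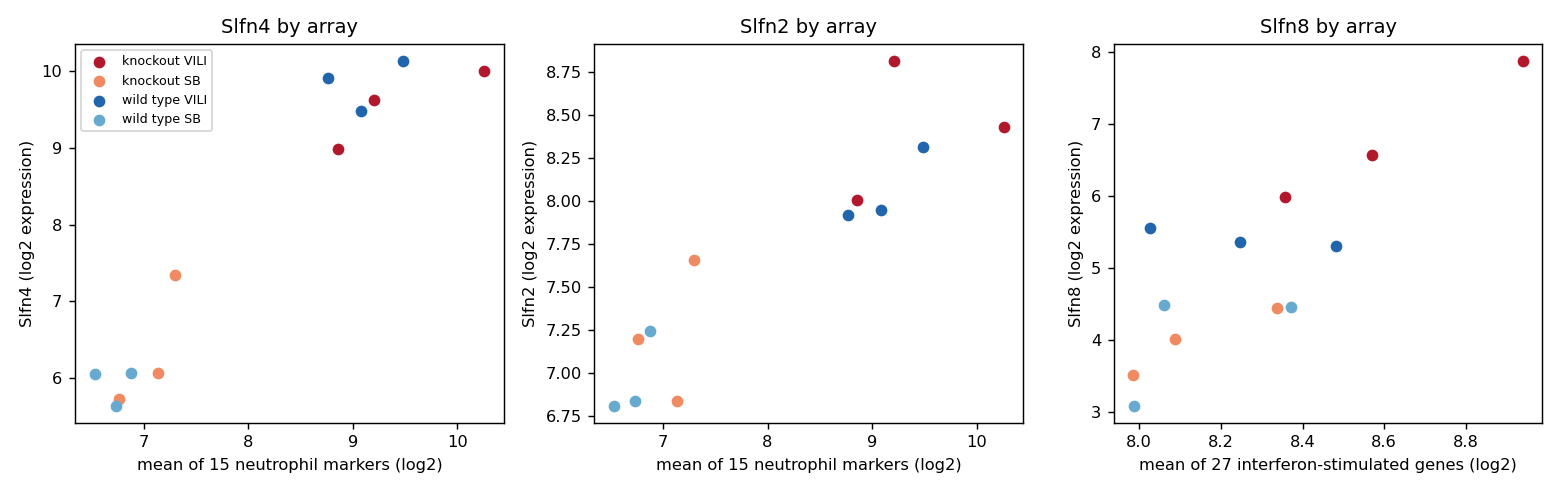
Slfn4 and Slfn2 against the mean of 15 neutrophil markers, and Slfn8 against the mean of 27 interferon-stimulated genes, each point 1 array, all axes in log2 expression. VILI arrays of both genotypes lie apart from SB arrays in the neutrophil panels, and knockout VILI replicate 3 is at the upper right of the Slfn8 panel, with 7.87 for Slfn8 and 8.94 for the list.

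Genes next to the cluster on chromosome 11 were listed to see whether the change reached past the Schlafen genes. Slfn10-ps, a Schlafen pseudogene within the cluster, was at 0.48 in knockout (limma adjusted p = 0.184) and at 0.35 in wild type (adjusted p = 0.334). It read 3.98 to 5.05 and exceeded the array median on 4 arrays, all VILI. It was kept through them, so its test does not stand apart from that choice. Within each genotype every VILI array was above every SB array, as in 12.9% of all genes in knockout and 11.6% in wild type. On the flanks, Unc45b, a myosin chaperone gene, was at -0.11 (adjusted p = 0.714), Lig3, a DNA ligase gene, at 0.19 (adjusted p = 0.437) and Rffl, a ubiquitin ligase gene, at 0.37 (adjusted p = 0.363) in knockout. Ap2b1, which encodes a subunit of the clathrin adaptor, was the 1 of these 5 called higher in knockout, by 0.92 (adjusted p = 0.0234). That call was lost with the knockout arrays alone and without knockout SB replicate 1 or 3 or knockout VILI replicate 2 or 3. It was also lost without both replicate 3 arrays and with the mean of the kept probe sets of each gene. In wild type Ap2b1 was at -0.32 (adjusted p = 0.353).

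The genes whose values over the 12 arrays were most like those of a member are given by Pearson's r, as a description that the shared VILI and SB groups shape. For Slfn4 they were Trnt1 (0.98), the calprotectin genes S100a8 (0.978) and S100a9 (0.9746), the myeloid lectin receptor gene Clec4d (0.971) and Eif5 (0.969). For Slfn1 they were Csf3r (0.969), Eed (0.961), Tlr13 (0.958), Mrps22 (0.957) and Clec4e (0.953), and for Slfn2 Pik3r5 (0.970), Ggps1 (0.948), Polr3a (0.946), Eed (0.945) and Themis2 (0.945).

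For Slfn8 the most alike were Spata13 (0.949), the interferon-stimulated Trim30a (0.939), the RNA-editing enzyme gene Adar (0.936), Ipcef1 (0.933) and Ccm2 (0.930). For Slfn5 they were the macrophage growth factor gene Csf1 (0.926), Rbm12b2 (0.908), Zc3h18 (0.907), Zfp672 (0.891) and Ccr2 (0.891). Between members, r over the 12 arrays ran from 0.620 (Slfn4 with Slfn5) to 0.920 (Slfn2 with Slfn8). Of deviations from the group means, which leave the group differences out, it ran from 0.186 to 0.727 for the same pairs.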

How the data were processed

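The authors deposited 1 log2 expression value per probe set and array, and MAS5 and GCRMA are named in the submitters' processing notes with no role, order or version. No scaling was added. The 64 control probe sets were left out, and filtering on 3 or more arrays above their own median left 23082 of 45037. Gene symbols came from the platform annotation, and the brightest kept probe set on average stood for each gene, giving 10996 genes. limma 3.58.1 in R 4.3.3 fitted 1 mean per group to all 12 arrays, with empirical Bayes moderation and a variance trend, and p-values were two-sided and adjusted (Benjamini-Hochberg) over all 10996 genes, with a threshold of 0.05. The fit was tested on simulated data. The number of arrays limits the precision, and nothing but the series design says that the arrays of a group are separate mice. The members, gene lists, motifs and contrasts were chosen with earlier results of these data known. The named genes are all members, Gadd45a, the 5 genes most like each measured member, the neighbours in the cluster, and from each list up to 4 genes called in knockout with the largest and smallest change. Outside this rule, Trem1, Fpr2, Ngp, Ltf and Hp, the measured neutrophil markers not called in knockout, and Ccl2, Ccl3 and Tnf were also named. Ifnar1, Ifnar2, Camp, Elane and Mpo were named after their values were seen. The lists are the locus genes, interferon-stimulated genes, interferon signalling, T cell quiescence, innate cytokines and chemokines, and cell type markers (lung epithelium, endothelium, platelets, B cells, T and NK cells, neutrophils, and monocytes with macrophages). Alternatives were the filter, normalization, probe set choice, variance trend, arrays in the fit, the replicate number as a block and leaving out arrays. Same-numbered SB arrays of the genotypes deviated together from their group means (correlations 0.231, 0.526 and 0.318). The labels do not say that replicate numbers pair the arrays, so the main fit leaves the numbers out and the block is an alternative.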

Additional observations from a re-analysis of the deposited data

How the results depend on the processing

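The count of members that rose with VILI in knockout, 3 of 5, was 0 with only the 6 knockout arrays, 1 without knockout SB replicate 3 and knockout VILI replicate 3, and 2 to 4 when 1 array was left out. With the replicate block it was 3, and the block changed no other call of a member; same-numbered knockout arrays of VILI and SB correlated in their deviations at 0.0467 to 0.426, knockout and wild type VILI arrays at 0.0531 to 0.144 and the wild type arrays at -0.0366 to 0.0591. Without the filter Slfn2 was lost (adjusted p = 0.0502). The counts of 0 for both genotype comparisons and the interaction stayed 0 under every alternative run. Signs turned only in differences that did not pass. For knockout against wild type in SB, leaving out 1 array gave -0.48 to 0.22 for Slfn8 and -0.022 to 0.79 for Slfn4, and in VILI -0.45 to 0.83 for Slfn1. For the interaction it gave -0.11 to 0.30 for Slfn2 and -0.55 to 0.059 for Slfn5. The Slfn5 interaction was 0.012 with the mean of its probe sets and 0.075 without both replicate 3 arrays, where that of Slfn2 was -0.13. The cause of these changes was not tested. The genes called over all 10996 for VILI in knockout numbered 491, 667 with the replicate block, 306 without the filter, 11 with the knockout arrays alone, 110 without both replicate 3 arrays, and 69 to 713 when 1 array was left out. In SB the genotype calls were 12, and 8 with the SB arrays alone. The wild type difference of Slfn5 was 0.37 without wild type SB replicate 2, 0.97 without replicate 3 and 1.05 with the mean of its probe sets, and leaving out 1 wild type SB array moved that of Slfn8 to between 0.93 (replicate 2) and 1.63 (replicate 1). Values near or below the array median, as for Slfn1 and Slfn8 under SB, limit the folds.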
